A study of Mus musculus with 20 samples.

Results

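Mitochondrial fatty acid oxidation and ketone body metabolism in the mouse kidney were followed through 33 genes, a named list that covers the carnitine shuttle, the enzymes of beta-oxidation and of ketone body use, and a few genes that set fuel choice. All 33 were among the 19940 genes of the deposited table, and all 33 were among the 14630 genes that passed the filter on low values (a normalized count of 10 or more in at least 5 libraries). Messenger RNA was measured in 20 kidney libraries from male mice, 5 in each of 4 groups. The labels do not say that each library is a separate mouse, so p-values measure the spread between these libraries. The groups were Tert+/+ mice at 7 weeks (Tert+/+ young), third-generation Tert-/- mice at 7 weeks (G3 Tert-/- young), Tert+/+ mice at 47 weeks (Tert+/+ old) and third-generation Tert-/- mice at 47 weeks (G3 Tert-/- old), with no agent or other allele named in the labels. Tert encodes the catalytic subunit of telomerase, and successive generations without it inherit shorter telomeres, so the design asks how the kidney transcriptome differs with telomerase genotype, with age, and with both. The samples are bulk kidney RNA, so fewer cells of a type and less RNA per cell cannot be told apart. Replicates are numbered within each group in the order of listing, and a number does not pair libraries.

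Beta-oxidation shortens fatty acids in the mitochondrial matrix and releases acetyl-CoA together with electrons for the respiratory chain. Long chains are activated to acyl-CoA, enter as carnitine esters, and then pass through repeated rounds of dehydrogenation, hydration, a second dehydrogenation and thiolysis. The proximal tubule relies heavily on this pathway for the energy of reabsorption, and the kidney also takes up and oxidizes ketone bodies.

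Recovered read totals ran from 7161690 to 9757594 per library. The first principal component of the tested genes held 22% of the variance. It set Tert+/+ young replicate 1 (67.47) and Tert+/+ old replicate 4 (56.62) apart from the other 18 libraries (-39.38 to 21.01). Some results are also given without both of these libraries, and others only with all libraries. All 16 proximal tubule markers were in the table and summed to 179504 to 456186 normalized counts per library, whereas 3 of 9 skeletal and heart muscle markers were in the table and summed to 4 to 25. The sum of 11 adipocyte markers ranged from 134 to 9502, with the highest values in G3 Tert-/- young replicate 3 (9502), G3 Tert-/- old replicate 5 (4172) and Tert+/+ young replicate 5 (3136). Adipoq, which defines that cell type, was at 0 in 1 library. Tert itself had 1 to 6 reads in G3 Tert-/- young, 5 to 8 in G3 Tert-/- old, 5 to 16 in Tert+/+ young and 7 to 15 in Tert+/+ old libraries. These reads come from the 3′ end of the transcript, and the sources used here do not state whether the deleted part reaches it, so they do not check the genotype.

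The members spanned a wide range of levels. Values are normalized read counts, with 1 sequenced tag per transcript at its 3′ end, so they are not scaled by transcript length. Oxct1, which transfers CoA to acetoacetate and commits ketone bodies to oxidation, was highest, at a mean of 9691 over the 20 libraries. Acadm, the medium-chain acyl-CoA dehydrogenase, followed at 4334, then Etfb, the beta subunit of the electron transfer flavoprotein, at 3589, and Acot13, an acyl-CoA thioesterase, at 3387. Pdk4, the kinase that shuts off pyruvate dehydrogenase, was lowest, between 2.77 and 46.2. Together the 33 members made up 0.508% to 0.680% of all reads in a library.

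**Figure D1:**
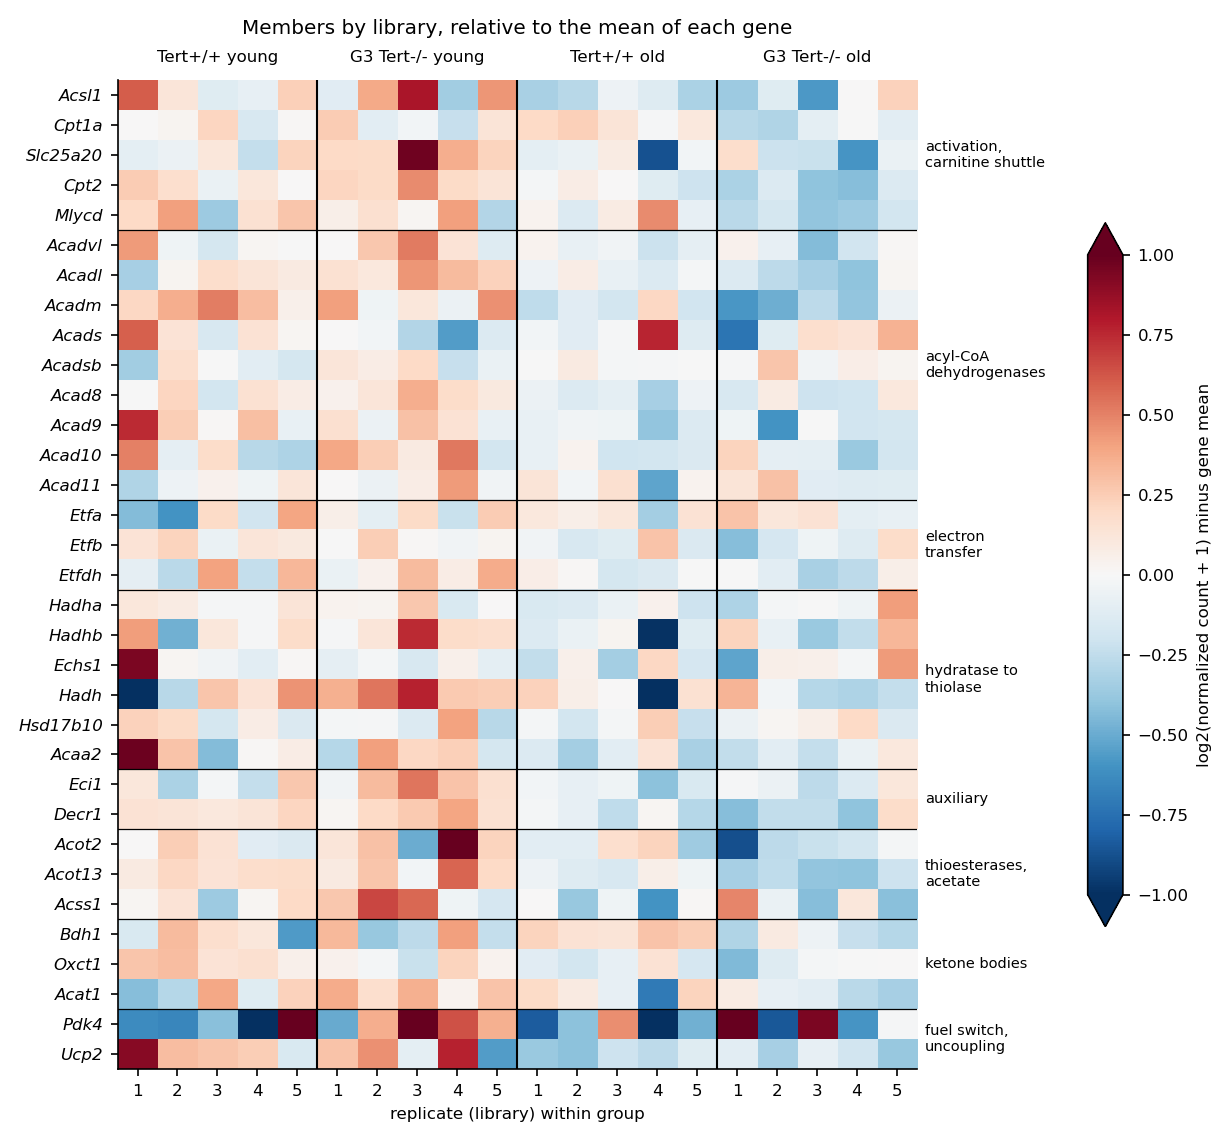
Each row is 1 of the 33 members and each column 1 library; colour is log2(normalized count + 1) minus the mean of that gene over the 20 libraries, and colours saturate at 1 in either direction. Columns of G3 Tert-/- old are mostly blue in the Cpt2, Mlycd, Acadl, Acadm and Acot13 rows, and Hadh is lowest in Tert+/+ young replicate 1 and Tert+/+ old replicate 4.

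The summed level of the 33 members was lower at 47 than at 7 weeks in both genotypes. The sum was 49835 ± 953 (SD, n = 5) in Tert+/+ young and 43929 ± 1292 in Tert+/+ old kidneys. It was 50376 ± 666 in G3 Tert-/- young and 41585 ± 2706 in G3 Tert-/- old kidneys. All 10 libraries of 7 weeks (48611 to 51223) lay above all 10 of 47 weeks (38437 to 46054). As a share of all reads the sum was 0.569% to 0.670% in Tert+/+ young against 0.523% to 0.560% in Tert+/+ old, and 0.598% to 0.680% in G3 Tert-/- young against 0.508% to 0.592% in G3 Tert-/- old libraries, so the ages were apart within each genotype but not across genotypes. The abundant genes Oxct1, Acadm, Etfb and Acot13 weigh most in this sum, so each step of the pathway is described on its own.

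In G3 Tert-/- kidneys, 5 of the 33 members fell between 7 and 47 weeks and none rose: Acot13, Cpt2, Acadl, Acadm and Decr1 (limma, Benjamini-Hochberg adjusted p under 0.05). Over all genes tested, 2.24% passed in this comparison, and 1.31% passed as lower. The falls were 1.35-fold to 1.46-fold. The 5 are protein-coding genes on the minus strand, Acot13 (ENSMUSG00000006717.7) at chr13:24817948-24831540, Cpt2 (ENSMUSG00000028607.16) at chr4:107903981-107923610, Acadl (ENSMUSG00000026003.5) at chr1:66830839-66863277, Acadm (ENSMUSG00000062908.12) at chr3:153922357-153944632 and Decr1 (ENSMUSG00000028223.8) at chr4:15917240-15945507 (GRCm38, GENCODE M21). 28 of the 33 members had a negative log2 fold change, against 49.5% of all genes, and the median was -0.30, against 0.00 for all genes. 13 members had an unadjusted p under 0.05, all of them lower, where 7.4% of all genes did so. edgeR called the same 5 members (2.39% of all genes), and DESeq2 called these and Slc25a20 (3.64% of all genes).

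**Figure D2:**
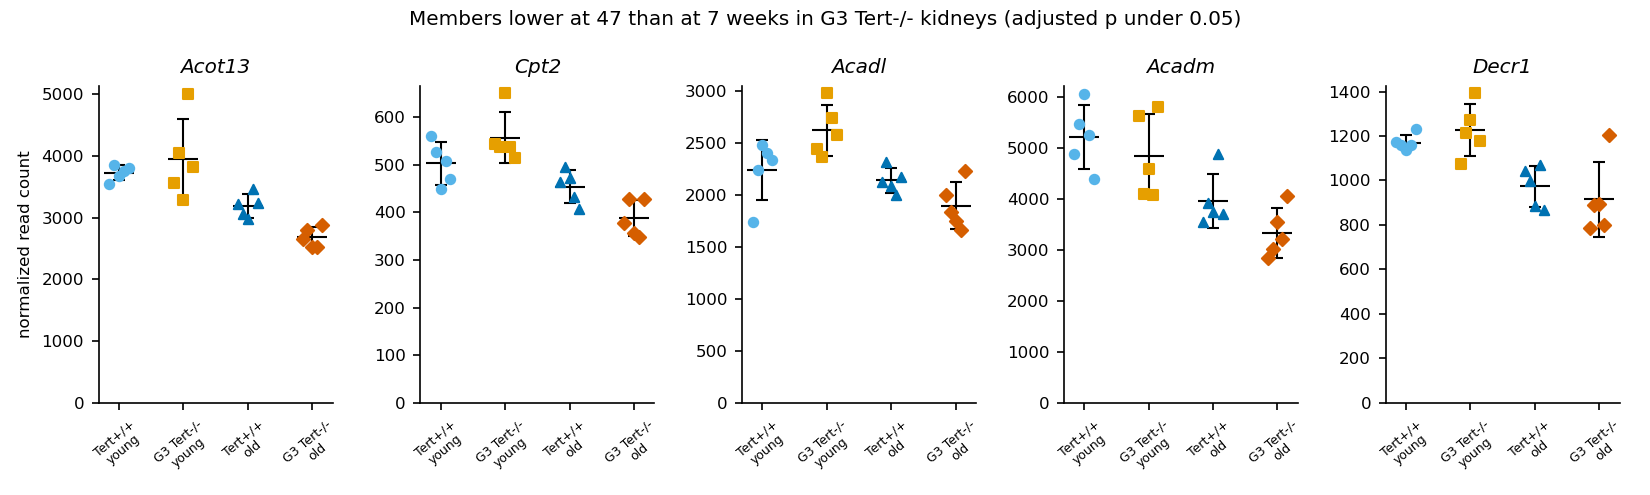
Normalized read count of the 5 members that fell in G3 Tert-/- kidneys, by group. Each point is 1 library, and lines show the mean and SD of 5 libraries; G3 Tert-/- old points lie below all G3 Tert-/- young points for Acot13, Cpt2, Acadl and Acadm, while for Decr1 replicate 5 (1203) overlaps the young group.

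Among the genes of activation and the carnitine shuttle, Cpt2 fell with age in G3 Tert-/- kidneys. Cpt2 is the inner-membrane transferase that turns acylcarnitine back into acyl-CoA in the matrix. Its normalized counts were 545.0, 537.2, 650.9, 537.3 and 514.5 in G3 Tert-/- young replicates 1 to 5 and 378.2, 427.7, 356.3, 349.3 and 428.4 in G3 Tert-/- old. No old value reached the lowest young one, and the fall was 1.44-fold (log2 fold change -0.52, SE 0.10, adjusted p = 0.00381). In Tert+/+ kidneys Cpt2 was 559.9, 527.6, 448.9, 509.3 and 470.3 at 7 weeks and 464.2, 495.6, 472.2, 432.4 and 407.3 at 47 weeks. Those groups overlapped, and the log2 fold change was -0.15 (SE 0.10, adjusted p = 0.633).

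Slc25a20, the carrier that exchanges acylcarnitine for carnitine across the inner membrane, had 302.5, 300.4, 518.0, 338.8 and 306.6 in G3 Tert-/- young and 297.9, 226.2, 225.4, 174.6 and 250.6 in G3 Tert-/- old libraries. The young group lay above the old one, with replicate 3 far above the rest, and the log2 fold change of -0.57 (SE 0.18) had an adjusted p of 0.0982 with limma, 0.0793 with edgeR and 0.0417 with DESeq2. In Tert+/+ it was 246.0, 252.7, 284.6, 222.7 and 307.1 at 7 weeks and 245.6, 251.2, 278.5, 143.0 and 258.2 at 47 weeks, where replicate 4 was the lowest of all libraries. Cpt1a, the outer-membrane transferase that malonyl-CoA inhibits, was 1304, 1321, 1506, 1158 and 1308 in Tert+/+ young, 1549.7, 1205, 1275, 1105 and 1419 in G3 Tert-/- young, 1492, 1532, 1421, 1287 and 1393 in Tert+/+ old and 1071, 1052, 1214, 1291 and 1205 in G3 Tert-/- old kidneys. Its log2 changes with age in the Tert+/+ and G3 Tert-/- groups were 0.11 and -0.16 (adjusted p = 0.735 and 0.478). The other 2 members of this step, the acyl-CoA synthetase Acsl1 and the malonyl-CoA decarboxylase Mlycd, had log2 changes of -0.40 and -0.35 with age in G3 Tert-/- kidneys (adjusted p = 0.299 and 0.237). Thus 5 of 5 shuttle genes had a negative estimate in that comparison, and 1 passed.

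The 9 acyl-CoA dehydrogenases remove the first electron pair and differ in the chains they accept. Acadl, the long-chain enzyme, had 2439, 2366, 2980.2, 2740.5 and 2572 in G3 Tert-/- young and 2003, 1836, 1746, 1659.6 and 2229.9 in G3 Tert-/- old libraries. The groups did not overlap, and Acadl fell 1.39-fold (log2 fold change -0.47, SE 0.10, adjusted p = 0.0161). In Tert+/+ it was 1743, 2236, 2481, 2401 and 2337 at 7 weeks, with replicate 1 lowest, and 2123, 2315, 2087, 1999 and 2169 at 47 weeks. The Tert+/+ log2 fold change was -0.06 (95% confidence interval -0.27 to 0.16).

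Acadm, the medium-chain enzyme whose loss in people causes a fasting intolerance, had a lower mean at 47 weeks in both genotypes. It had 5629, 4102, 4587, 4074 and 5802 in G3 Tert-/- young and 2834, 3012, 3540.1, 3219 and 4064 in G3 Tert-/- old libraries. The highest old value lay just below the lowest young one, and Acadm fell 1.45-fold (log2 fold change -0.53, SE 0.13, adjusted p = 0.0264). In Tert+/+ it was 4879, 5462, 6051, 5255 and 4389 at 7 and 3546, 3914, 3737, 4876 and 3701 at 47 weeks. Only replicate 4 of the old group, 1 of the libraries that stand apart, reached into the young range. The Tert+/+ estimate was -0.40 (SE 0.13) and did not pass (adjusted p = 0.198), except when libraries were weighted by their quality (adjusted p = 0.0159).

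No other acyl-CoA dehydrogenase passed in either age comparison. Acadvl, the very-long-chain enzyme of the inner membrane, was 915.6 ± 162.3 (SD, n = 5) in G3 Tert-/- young and 744.7 ± 95.1 in G3 Tert-/- old kidneys. Acads, the short-chain enzyme, had a positive estimate in G3 Tert-/- kidneys (0.16, 95% confidence interval -0.23 to 0.55) and ranged from 958 to 2691 over all libraries. Its 2 highest values were 2691 in Tert+/+ old replicate 4 and 2401 in Tert+/+ young replicate 1, the libraries that stand apart. Acadsb and Acad8, which act on branched chains from isoleucine and valine, were 821.6 ± 93.8 and 303.7 ± 27.2 in G3 Tert-/- young against 845.2 ± 76.4 and 257.6 ± 28.7 in G3 Tert-/- old kidneys. Acad9, which also serves in the assembly of respiratory complex I, was 165.3, 116.7, 98.8, 121.1 and 93.4 in Tert+/+ young and 93.3, 95.6, 95.4, 74.3 and 89.0 in Tert+/+ old libraries. Its values in G3 Tert-/- were 109.9, 93.9, 120.6, 108.8 and 93.3 at 7 and 95.1, 64.5, 97.6, 85.8 and 86.9 at 47 weeks. The groups overlapped in both genotypes, with log2 fold changes of -0.38 and -0.30 (adjusted p = 0.34 and 0.366). Acad10 and Acad11 had estimates of -0.32 and -0.07 with age in G3 Tert-/- kidneys.

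Electrons from these enzymes pass to the flavoprotein subunits Etfa and Etfb and on to ubiquinone through Etfdh. None of the 3 passed. Etfa was 442.0 ± 128.5, 482.6 ± 65.4, 476.2 ± 60.6 and 493.9 ± 54.8 (SD, n = 5 each) in Tert+/+ young, G3 Tert-/- young, Tert+/+ old and G3 Tert-/- old kidneys. Etfb ran from 2661 to 4336 over all libraries, with log2 changes of -0.14 and -0.17 with age in Tert+/+ and G3 Tert-/- kidneys. The 3′ part of Etfb shares 52.7% of its 50-base words with the overlapping gene Gm45233 on the same strand, so its count may be split with that gene.

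The hydration, second dehydrogenation and thiolysis steps showed no call in any comparison, except Hadh in some alternative fits, given below. Hadha and Hadhb encode the alpha and beta subunits of the trifunctional protein, which carries out all 3 reactions on long chains at the inner membrane. Hadha was 1653, 1620.3, 1519, 1519 and 1672 in Tert+/+ young, 1564, 1561, 1845, 1378 and 1531 in G3 Tert-/- young, 1377, 1392, 1462, 1577 and 1328 in Tert+/+ old and 1234, 1507, 1524, 1484 and 2044 in G3 Tert-/- old libraries. Every group overlapped every other, and the highest value, in G3 Tert-/- old replicate 5, lay in an old group. Its age estimates in Tert+/+ and G3 Tert-/- kidneys were -0.16 (SE 0.11) and -0.03 (SE 0.11), and the sign of the second changed with the processing. Hadhb was lower in level, at 477.1 ± 103.0, 545.6 ± 123.6, 389.8 ± 92.8 and 452.6 ± 94.3 (SD, n = 5 each) in the groups in the same order. The ratio of Hadha to Hadhb counts lay between 2.33 and 4.99 in 19 libraries and was 6.93 in Tert+/+ old replicate 4. Hadhb shares 31.3% of its 3′ words with the annotated genes Gm13910 and Gm9108, so its count may be split with them.

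Hadh, the hydroxyacyl-CoA dehydrogenase of shorter chains, was 908 in Tert+/+ young replicate 1 and 875 in Tert+/+ old replicate 4 and lay between 1818 and 3843 in the 18 others. Leaving out both of these libraries, Hadh was called lower with age in G3 Tert-/- kidneys (neither library belongs to that comparison, but all groups share 1 estimate of the spread). Hadh was also called there with library weights and in a model of the 2 groups alone. In the limma model of all 4 groups, with all libraries and no weights, its log2 fold change there was -0.54 (SE 0.28, adjusted p = 0.384). Echs1, the short-chain enoyl-CoA hydratase, was 2027 in Tert+/+ young replicate 1 and 735 to 1422 elsewhere. Acaa2, the matrix thiolase, was also highest in that library, at 2760, against 1033 to 1855 in the others. Hsd17b10, which acts on branched and steroid substrates and is a part of mitochondrial ribonuclease P, ranged from 529.5 to 852, with age estimates of -0.08 in Tert+/+ and 0.02 in G3 Tert-/- kidneys.

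Unsaturated chains need auxiliary enzymes to move or remove double bonds. Decr1, the dienoyl-CoA reductase, was 1073, 1215, 1271, 1393 and 1178 in G3 Tert-/- young and 786.9, 890.3, 892.3, 800.7 and 1203 in G3 Tert-/- old libraries. Replicate 5 of the old group overlapped the young range and the other 4 lay below it, and Decr1 fell 1.35-fold (log2 fold change -0.43, SE 0.11, adjusted p = 0.0303). In Tert+/+ it was 1171, 1157, 1136, 1159 and 1230.1 at 7 and 1044, 998.0, 886.1, 1071 and 867.9 at 47 weeks, groups that did not overlap, and the estimate of -0.27 (SE 0.11) did not pass (adjusted p = 0.342). Eci1, the enoyl-CoA isomerase, was 607.2, 450.4, 554.6, 475.1 and 678.2 in Tert+/+ young, 547.7, 700.7, 813.8, 682.6 and 627.0 in G3 Tert-/- young, 550.2, 531.0, 543.3, 422.3 and 505.2 in Tert+/+ old and 556.7, 538.3, 467.4, 509.6 and 608.2 in G3 Tert-/- old libraries. Its age estimates were -0.11 and -0.32 (adjusted p = 0.813 and 0.195).

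Thioesterases release free fatty acids and CoA from acyl-CoA. Acot13 had the smallest adjusted p of the 33 members in G3 Tert-/- kidneys. It was 3561, 4054, 3282, 5010.1 and 3824 in G3 Tert-/- young and 2656, 2806, 2532, 2520.5 and 2889 in G3 Tert-/- old libraries, so the highest old value lay below the lowest young one. The fall was 1.46-fold (log2 fold change -0.54, SE 0.10, adjusted p = 0.00252). In Tert+/+ it was 3554, 3859, 3675, 3763 and 3798 at 7 and 3218, 3052, 2979, 3471 and 3235 at 47 weeks. Those groups did not overlap either, and the estimate was -0.23 (SE 0.10, adjusted p = 0.393). Acot2, the matrix thioesterase, was 1163 in G3 Tert-/- young replicate 4 and 231 to 522 in the other 19 libraries. Its age estimate in G3 Tert-/- kidneys was -0.63 (SE 0.23, adjusted p = 0.182). The neighbouring gene Acot1, a close copy of Acot2 in the cytosol, was 669 in the same library and 237 to 539 in the others. The 3′ part of Acot2 shares no 50-base word with Acot1. Acss1, which activates acetate in mitochondria, had 748.1 ± 188.9 (SD, n = 5) in G3 Tert-/- young and 600.4 ± 167.1 in G3 Tert-/- old kidneys.

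The ketone body enzymes did not pass in any comparison with edgeR, DESeq2 or limma without library weights. With library weights, limma called Acat1 with age in G3 Tert-/- kidneys. Oxct1 had 11633, 11904, 10564, 10746 and 9972 in Tert+/+ young and 8895, 8483, 9069, 10604 and 8566 in Tert+/+ old libraries, with old replicate 4 inside the young range. It was 9903, 9500, 8261, 11253 and 9871 in G3 Tert-/- young and 7091, 8787, 9477, 9613 and 9624 in G3 Tert-/- old libraries, which overlapped. The age estimates were -0.27 (SE 0.11, adjusted p = 0.356) and -0.13 (SE 0.11, adjusted p = 0.631). Bdh1 interconverts hydroxybutyrate and acetoacetate and was 749.9, 1037, 937.0, 903.0 and 562.1 in Tert+/+ young, 1045, 640.0, 694.2, 1106 and 707.4 in G3 Tert-/- young, 969.9, 922.1, 910.4, 1017 and 985.9 in Tert+/+ old and 677.1, 886.2, 804.0, 709.8 and 685.0 in G3 Tert-/- old libraries. Spread was narrow in Tert+/+ old (SD 44.4) and wide in both young groups (SD 185 and 219). Acat1, the acetoacetyl-CoA thiolase, had log2 changes of -0.01 and -0.38 with age in Tert+/+ and G3 Tert-/- kidneys (adjusted p = 0.988 and 0.256). The ratio of Oxct1 to Bdh1 counts was 13.6 ± 2.90 (SD, n = 5) in Tert+/+ young, 12.1 ± 2.32 in G3 Tert-/- young, 9.49 ± 0.695 in Tert+/+ old and 11.95 ± 1.82 in G3 Tert-/- old kidneys.

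Pdk4 and Ucp2 are the members farthest from the catalytic pathway. Pdk4 was 4.92, 4.82, 5.87, 2.77 and 24.4 in Tert+/+ young, 5.45, 10.8, 46.2, 13.3 and 10.7 in G3 Tert-/- young, 4.14, 5.91, 11.7, 3.38 and 5.56 in Tert+/+ old and 19.01, 4.09, 16.6, 5.11 and 8.08 in G3 Tert-/- old libraries. The lowest value is 3 reads, and the 2 highest were in G3 Tert-/- young replicate 3 and Tert+/+ young replicate 5, 2 of the 3 libraries with the highest adipocyte marker sums. In the other of these 3, G3 Tert-/- old replicate 5, Pdk4 was 8.08. Pdk4 did not pass in any comparison (adjusted p from 0.496 to 0.951). Ucp2, a carrier of the inner membrane that exports metabolites and is named for uncoupling, was 376.9, 247.9, 242.6, 237.5 and 179.2 in Tert+/+ young and 154.4, 149.8, 172.3, 166.7 and 183.6 in Tert+/+ old libraries. It was 243.4, 274.0, 186.5, 341.3 and 135.1 in G3 Tert-/- young and 185.9, 158.6, 188.0, 174.6 and 153.6 in G3 Tert-/- old libraries. The 2 young groups were wide and the 2 old ones narrow, and the Tert+/+ age estimate of -0.59 (SE 0.19) had an adjusted p of 0.202.

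With age in Tert+/+ kidneys, limma called 0 of the 33 members, where 0.649% of all genes passed, and edgeR (0.725% of all genes) and DESeq2 (1.44%) also called 0. 6 members had an unadjusted p under 0.05, all of them lower: Acadm, Ucp2, Acad9, Decr1, Oxct1 and Acot13. As lower, 5.41% of all genes had such a p. 29 of 33 estimates were negative, against 49.3% of all genes, with a median of -0.14. Leaving out 1 library, the negative estimates numbered 24 to 29, with 24 without Tert+/+ young replicate 5. They numbered 25 with library weights. Without both libraries that stand apart they also numbered 25, and limma again called 0 members. Decr1 and Acot13 were the 2 members whose groups did not overlap, both lower at 47 weeks, as were 1.25% of all genes. In G3 Tert-/- kidneys the groups of 5 members did not overlap (Slc25a20, Cpt2, Acadl, Acadm and Acot13), all lower, as were 2.66% of all genes. The 2 age comparisons share no libraries. In the fit of all libraries, 26 of the 33 members were lower with age in both genotypes, against 28.8% of all genes, and 2 were higher in both. This count was not made in the other fits.

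**Figure D3:**
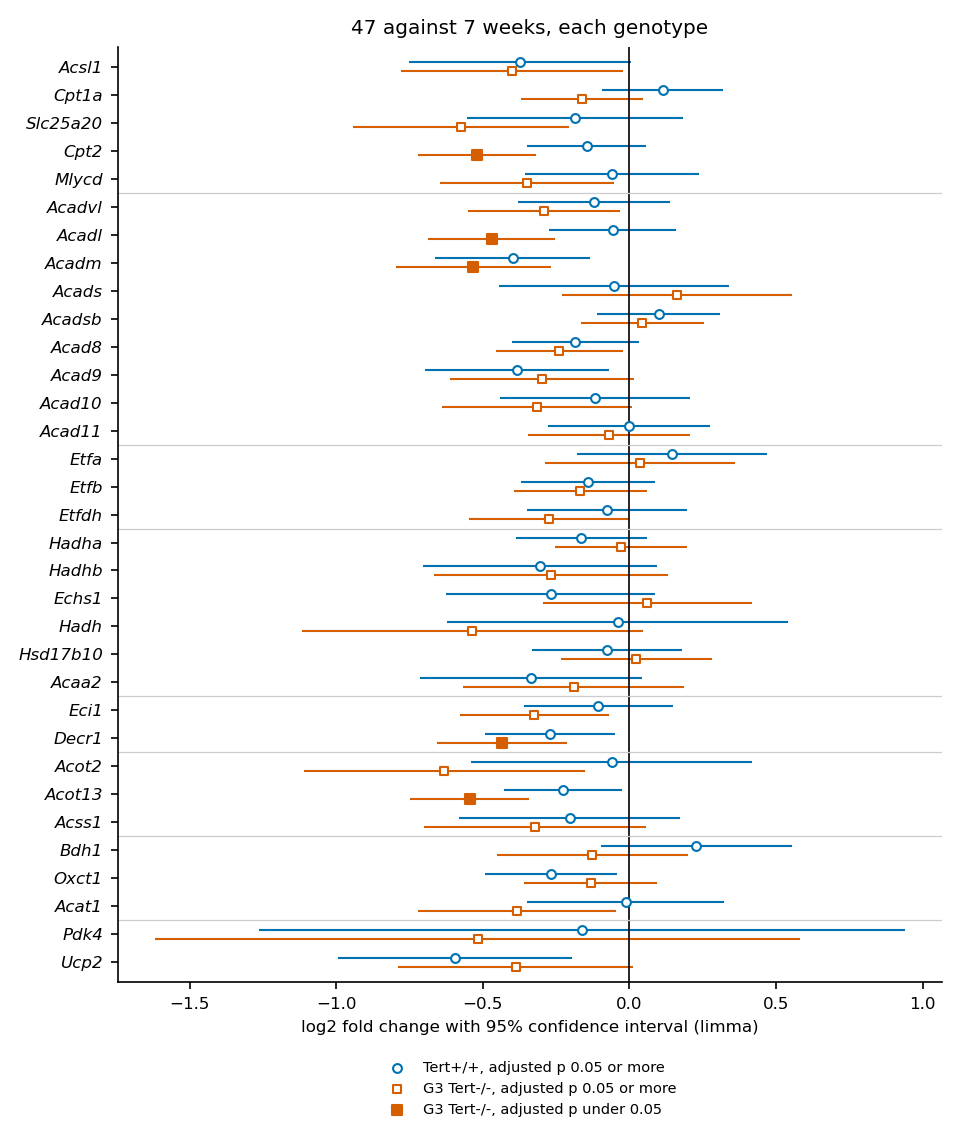
Log2 fold change of each member at 47 against 7 weeks, with its 95% confidence interval from limma, in Tert+/+ (circles) and G3 Tert-/- kidneys (squares); filled squares mark adjusted p under 0.05, and grey lines divide the roles in the order of the text. Most points lie left of 0 in both genotypes. Acadl lies near 0 in Tert+/+ and near -0.5 in G3 Tert-/- kidneys, while Cpt2 lies left of 0 in both.

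Whether age acted differently in the 2 genotypes was tested by the interaction, the age effect in G3 Tert-/- minus that in Tert+/+ kidneys. limma, edgeR and DESeq2 called 0 of the 33 members, where limma and edgeR each called 0.00684% and DESeq2 0.0478% of all genes. 3 members had an unadjusted p under 0.05, all more negative in G3 Tert-/- kidneys, as were 2.97% of all genes: Acadl (-0.41, 95% confidence interval -0.72 to -0.11), Cpt2 (-0.38, -0.66 to -0.09) and Acot13 (-0.32, -0.60 to -0.03). Their adjusted p were 0.774, 0.774 and 0.783. So a different age effect between genotypes was not established for any member. 24 of 33 estimates were negative, against 49.98% of all genes, with a median of -0.13, which was -0.07 without G3 Tert-/- young replicate 3 and -0.22 without the libraries rich in adipocyte markers.

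Between genotypes at 7 weeks, limma and edgeR called 0 of the 33 members, as they did 0 of 14630 genes (0%), and DESeq2 called 0 members and 0.0889% of all genes. 3 members had an unadjusted p under 0.05, each higher in G3 Tert-/- kidneys, where 5.27% of all genes had such a p. They were Eci1 (log2 fold change 0.29, SE 0.12), Slc25a20 (0.40, SE 0.18) and Acadl (0.23, SE 0.10), with adjusted p of 0.446, 0.451 and 0.463. In this comparison 10 of 11 adipocyte markers had a positive estimate (median 1.20), and limma, edgeR and DESeq2 called 0 of them (0 with an unadjusted p under 0.05). Their sum was 1084 ± 1205 (SD, n = 5) in Tert+/+ young and 2749 ± 3825 in G3 Tert-/- young libraries. Without G3 Tert-/- young replicate 3, the library richest in these markers, the estimates were 0.22 for Eci1, 0.26 for Slc25a20 and 0.18 for Acadl. Without all libraries rich in adipocyte markers they were 0.30, 0.32 and 0.19. The median over the members was 0.11, and 0.04 without G3 Tert-/- young replicate 4.

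Between genotypes at 47 weeks, limma called 0 of 33, where 0.0957% of all genes passed, and edgeR (0.103%) and DESeq2 (0.349%) also called 0. 5 members had an unadjusted p under 0.05, each lower in G3 Tert-/- kidneys, as had 3.5% of all genes. These were Cpt1a (log2 fold change -0.29, SE 0.10), Acot13 (-0.25, SE 0.10), Mlycd (-0.35, SE 0.14), Cpt2 (-0.23, SE 0.10) and Bdh1 (-0.36, SE 0.16), with adjusted p from 0.556 to 0.727. Mlycd, which breaks down the inhibitor of Cpt1a, was 359.6, 318.2, 371.9, 486.5 and 331.6 in Tert+/+ old and 290.5, 311.1, 265.9, 271.7 and 308.2 in G3 Tert-/- old libraries, which did not overlap. At 7 weeks Mlycd had 402.5, 465.8, 271.9, 389.1 and 424.1 in Tert+/+ and 364.3, 392.4, 355.1, 466.7 and 286.2 in G3 Tert-/- libraries, which overlapped. Acot13 and Bdh1 also lay wholly lower in G3 Tert-/- old kidneys, so 3 members did not overlap, where 1.44% of all genes were apart in that direction. Over the 33 members the median was 0.01. These genotype comparisons share libraries with the age comparisons, so the low values of G3 Tert-/- old kidneys enter both. The values of G3 Tert-/- young kidneys likewise enter the genotype comparison at 7 weeks and the G3 Tert-/- age comparison. At 7 weeks 20 of the 33 members had a positive estimate in G3 Tert-/- kidneys and 13 a negative one.

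**Figure D4:**
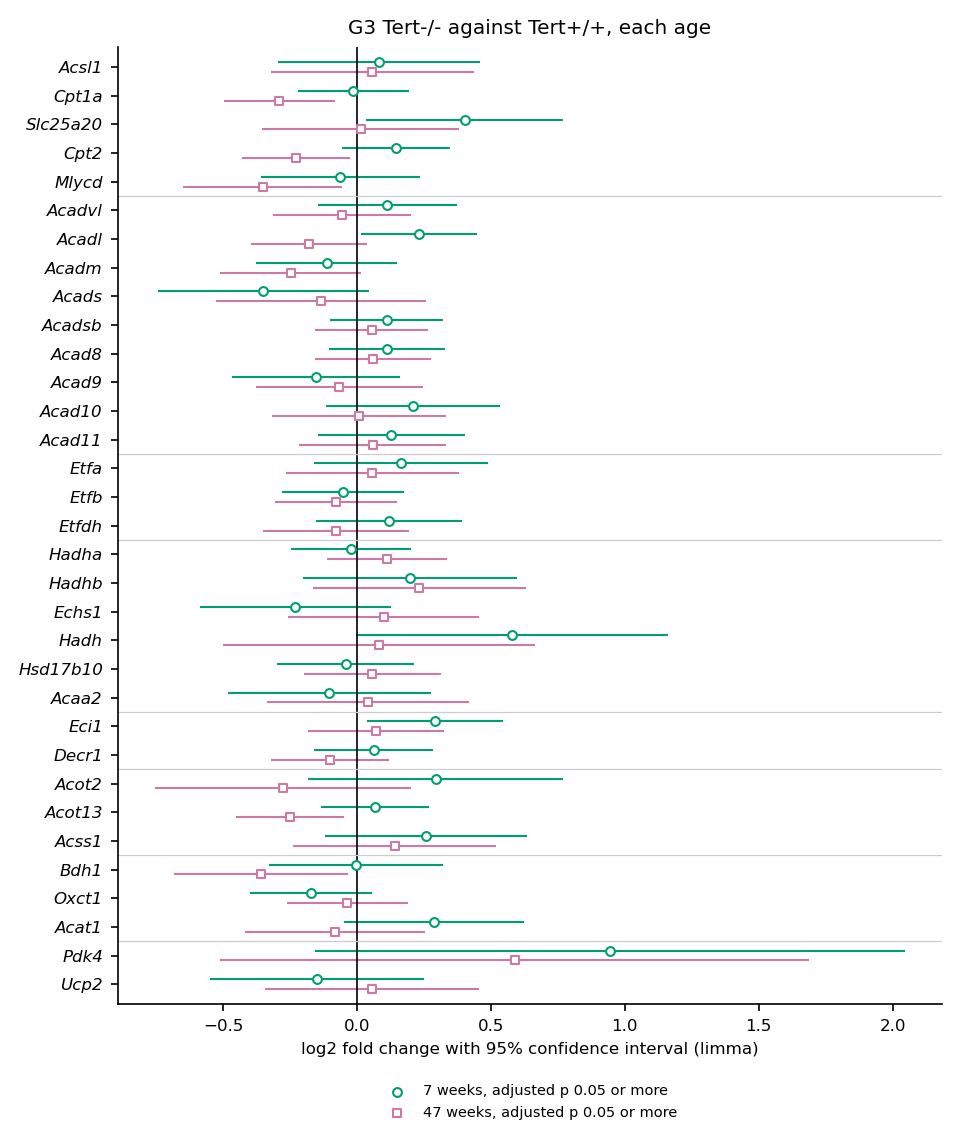
Log2 fold change of each member in G3 Tert-/- against Tert+/+ kidneys, with its 95% confidence interval from limma, at 7 weeks (circles) and 47 weeks (squares). No member reached an adjusted p under 0.05, and intervals of Cpt1a, Cpt2, Mlycd, Acot13 and Bdh1 lie below 0 at 47 weeks.

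Adipocyte marker RNA varied between libraries. With age in G3 Tert-/- kidneys, 10 of 11 adipocyte markers had a negative estimate (median -1.13). limma, edgeR and DESeq2 called 0 of the 11, and 0 had an unadjusted p under 0.05. The summed level ranged from 208 to 9502 in G3 Tert-/- young and from 177 to 4172 in G3 Tert-/- old libraries. G3 Tert-/- young replicate 3, with the highest sum, also had the highest Cpt2 (651), Slc25a20 (518), Hadh (3843), Acadl (2980) and Pdk4 (46.2) of all libraries. Without the 5 libraries whose sum was above 1500, which leaves 3 against 3 in G3 Tert-/-, limma called only Acot13 (log2 fold change -0.67, adjusted p = 0.0162). The estimates of the other 4 were then -0.52 for Cpt2 (adjusted p = 0.0613), -0.52 for Acadl (0.0731), -0.48 for Acadm (0.155) and -0.50 for Decr1 (0.063). In Tert+/+ kidneys the same exclusion, which removes 1 library, called Ucp2 lower at 47 weeks (-0.71, adjusted p = 0.0348). With the log2 adipocyte sum as a covariate and all libraries kept, Acot13, Cpt2, Acadl and Acadm passed and Decr1 did not (adjusted p = 0.0571). What part adipocyte RNA has in the members' values beyond these fits was not tested.

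**Figure D5:**
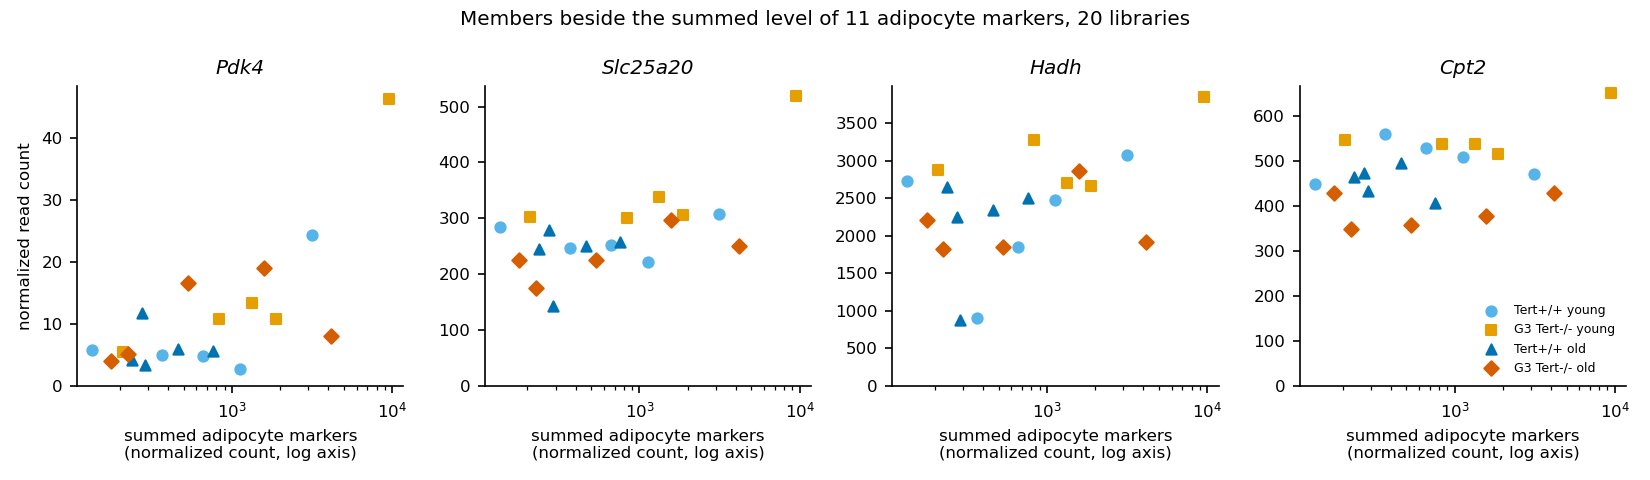
Normalized read count of Pdk4, Slc25a20, Hadh and Cpt2 (vertical axes, from 0) against the summed normalized count of 11 adipocyte markers (horizontal log axis), 1 point per library, marked by group. The library with the highest sum, G3 Tert-/- young replicate 3 (9502), is the highest of the 20 for all 4 genes. The library with the next highest sum, G3 Tert-/- old replicate 5 (4172), has 8.08 for Pdk4, 250.6 for Slc25a20, 1912 for Hadh and 428.4 for Cpt2.

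Several of the 5 calls in G3 Tert-/- kidneys were lost when 1 library was left out, which also left fewer libraries in the test. Acot13 and Cpt2 passed when any 1 of the 10 libraries was left out. Acadl was lost without G3 Tert-/- old replicate 4 (adjusted p = 0.0606). Acadm was lost without young replicate 1 (0.0838) or 5 (0.0668), or without old replicate 1 (0.0619), 2 (0.08) or 4 (0.0682). Decr1 was lost without young replicate 2 (0.0688), 3 (0.0645) or 4 (0.074), or without old replicate 1 (0.0707), 2 (0.0736), 3 (0.0617) or 4 (0.101). Where calls were lost this way, the estimates were -0.42 for Acadl, -0.52 to -0.46 for Acadm and -0.44 to -0.38 for Decr1. With all libraries they were -0.47, -0.53 and -0.43. Whether the smaller group or the value of the library removed a call was not tested. Without young replicate 3, Acot2 passed as well. Leaving out both libraries that stand apart, neither of which is G3 Tert-/-, the 5 calls were kept and Slc25a20 and Hadh were added. The 5 members lost 3 calls with quantile normalization, where Cpt2 and Acot13 passed and Acadl (adjusted p = 0.0542), Acadm (0.152) and Decr1 (0.0526) did not. Decr1 was also lost in a model of the 2 groups alone (0.0649), where Hadh was gained.

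Markers of other cell types and of mitochondria were read beside the age comparisons. Over all genes, limma called 2.24% with age in G3 Tert-/- and 0.649% in Tert+/+ kidneys. Of 16 proximal tubule markers, limma called 3 with age in G3 Tert-/- kidneys, all lower. They were the organic anion transporters Slc22a6 (-0.69) and Slc22a7 (-2.41) and the glucose transporter Slc5a2 (-0.58). The median was -0.14, with 8 of 16 negative. In limma 10 of the 16 had an unadjusted p under 0.05, 7 of them lower, where 14.9% of all genes had such a p. Their summed level was 277658 ± 44098 (SD, n = 5) in G3 Tert-/- young and 220415 ± 30281 in G3 Tert-/- old kidneys, which overlapped. With age in Tert+/+ kidneys limma called 0 of the 16, and edgeR (0.725% of all genes) and DESeq2 (1.44%) called 1 each. There 11 of 16 were negative, with a median of -0.16. The sum was 316780 ± 78389 in Tert+/+ young and 253855 ± 28396 in Tert+/+ old kidneys, which also overlapped. With age in G3 Tert-/- kidneys, the 13 messenger RNAs encoded by mitochondrial DNA had a median of 0.01, with 6 negative. limma, edgeR and DESeq2 called 0 of these 13, and 1 had an unadjusted p under 0.05. With age in Tert+/+ kidneys their median was -0.04, with 7 negative, and the same 3 tools called 0. In limma 3 of the 13 had an unadjusted p under 0.05 there, all lower, where 5.41% of all genes had such a p as lower. Of 10 markers of the thick ascending limb and distal tubule, the salt transporter Slc12a3 rose (0.62) and the calcium-binding Calb1 fell (-0.61) with age in G3 Tert-/- kidneys, with 4 of 10 negative, and Slc12a3 also rose in Tert+/+ kidneys (0.57).

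Leukocyte markers were higher in level at 47 weeks. Their sum was 968 ± 358 (SD, n = 5) in Tert+/+ young and 4313 ± 1942 in Tert+/+ old, and 961 ± 245 in G3 Tert-/- young and 2991 ± 3050 in G3 Tert-/- old libraries. The ages did not overlap in Tert+/+ (492 to 1444 against 2723 to 7386) and did in G3 Tert-/- libraries (657 to 1287 against 993 to 8388). In Tert+/+ kidneys limma called 2 of the 8 tested as higher, where 0.649% of all genes passed. These were the immunoglobulin genes Igkc (4.94) and Jchain (4.09). In G3 Tert-/- kidneys 0 of 8 estimates were negative (median 0.57). There limma called 0, edgeR 1 and DESeq2 2, where they called 2.24%, 2.39% and 3.64% of all genes. In limma 4 of the 8 had an unadjusted p under 0.05, as had 14.9% of all genes. Of 12 hepatocyte markers tested, limma called 3 with age in G3 Tert-/- kidneys, where 2.24% of all genes passed. Apoh (1.28) and Serpina1a (1.93) rose and Ttr (-1.52) fell. Of the 12, 5 had a negative estimate, and the median was 0.11. The hepatocyte marker sum in these kidneys was 4205 ± 518 at 7 and 3098 ± 635 at 47 weeks. The part of tubule, leukocyte or mitochondrial content in the members' values was not tested.

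Other genes of fatty acid and ketone metabolism were followed through 7 lists that name 95 genes. The table held 92 of them, and 89 passed the filter on low values. With age in G3 Tert-/- kidneys, limma called 9 of the 89, all lower, where 2.24% of all genes passed and 1.31% passed as lower. edgeR called 8 of the 89 and DESeq2 10, where they called 2.39% and 3.64% of all genes. In uptake and binding, the fatty acid transporter Cd36 fell 1.56-fold (log2 fold change -0.64, SE 0.16, adjusted p = 0.0385) and the carnitine octanoyltransferase Crot 1.52-fold (-0.60, SE 0.14, 0.0243). Among the other thioesterases, Acot12 fell 1.62-fold and Acot1 1.58-fold (adjusted p = 0.00138 and 0.0332). In the list of peroxisomal and omega oxidation, 14 of 16 genes were negative, and limma and DESeq2 called 2 and edgeR 1. Of the 2 that limma called, both lower, the transporter Abcd3 of peroxisomes, where very long chains are shortened, fell 1.28-fold (adjusted p = 0.0471). The other is not reported here. Eci2, an enoyl-CoA isomerase, fell 1.48-fold (adjusted p = 0.0143).

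Of the kinases that inhibit pyruvate dehydrogenase, Pdk3 fell. It was 436.0, 433.5, 406.9, 383.7 and 363.4 in G3 Tert-/- young and 208.1, 236.4, 245.1, 207.3 and 236.4 in G3 Tert-/- old libraries (log2 fold change -0.83, SE 0.13, adjusted p = 0.00062). Angptl4, a secreted inhibitor of lipoprotein lipase listed with it, fell 2.24-fold (adjusted p = 0.0365). With age in Tert+/+ kidneys limma called 3 of the 89 (0.649% of all genes), and edgeR (0.725% of all genes) and DESeq2 (1.44%) called 4 each. By limma the bifunctional peroxisomal enzyme Ehhadh fell 1.84-fold, the omega-hydroxylase Cyp4a14 fell 4.75-fold, and the cytosolic thiolase Acat3 rose 1.78-fold (adjusted p = 0.0249, 0.0237 and 0.0417). Ehhadh was 542 in Tert+/+ young replicate 1, 1 of the libraries that stand apart, and 264 to 309 in the other Tert+/+ young libraries. Its estimate without that library is not reported here. Neither genotype comparison nor the interaction called any of the 89 with limma, edgeR or DESeq2, and 12, 9 and 9 had an unadjusted p under 0.05 at 7 weeks, at 47 weeks and in the interaction, as had 10.7%, 6.58% and 6.22% of all genes.

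No call was made by limma among the 15 transcriptional regulators in any comparison, and in the G3 Tert-/- age comparison 4 had an unadjusted p under 0.05, 2 of them lower, where 14.9% of all genes had such a p. edgeR called 0 of the 15 there and DESeq2 called 1, where DESeq2 called 3.64% of all genes. Ppara, the fatty acid receptor that drives many of the member genes, was 1058, 951.9, 729.7, 1063 and 1066 in Tert+/+ young, 1045, 820.0, 797.8, 316.4 and 738.5 in G3 Tert-/- young, 976.1, 1031, 815.0, 916.7 and 1059 in Tert+/+ old and 847.2, 808.4, 1034, 916.1 and 808.3 in G3 Tert-/- old libraries. It was lowest in G3 Tert-/- young replicate 4, the library with the highest Acot2, Acot13 and Decr1. The coactivator Ppargc1a had log2 changes of 0.09 and 0.22 with age in Tert+/+ and G3 Tert-/- kidneys (adjusted p = 0.807 and 0.295).

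The sequence before the start site was examined because several members fell together. RefSeq promoter windows (250 bases before to 50 after the start, GRCm38.p6) were matched by symbol for 28 of the 33 members. Decr1 and Acot13 were not matched, and the upstream sequence is shown for the other 3 members that fell in G3 Tert-/- kidneys, 200 bases each, 5′ to 3′ on the strand of the gene. Capitals would mark the hexamer AGGTCA, bound by nuclear receptors such as PPAR with RXR, on either strand, and none of the 3 stretches holds it. The positions are chr4:107923611-107923810 on the minus strand for Cpt2, chr1:66863310-66863509 on the minus strand for Acadl and chr3:153944644-153944843 on the minus strand for Acadm.
Cpt2: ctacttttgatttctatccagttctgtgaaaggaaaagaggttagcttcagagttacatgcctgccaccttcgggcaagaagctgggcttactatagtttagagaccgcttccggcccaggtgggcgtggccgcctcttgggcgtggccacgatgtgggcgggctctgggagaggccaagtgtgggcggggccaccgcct
Acadl: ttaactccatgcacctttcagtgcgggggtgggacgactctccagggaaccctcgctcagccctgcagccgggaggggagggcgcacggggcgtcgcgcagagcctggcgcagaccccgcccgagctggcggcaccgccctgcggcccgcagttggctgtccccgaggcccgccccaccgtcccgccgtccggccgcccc
Acadm: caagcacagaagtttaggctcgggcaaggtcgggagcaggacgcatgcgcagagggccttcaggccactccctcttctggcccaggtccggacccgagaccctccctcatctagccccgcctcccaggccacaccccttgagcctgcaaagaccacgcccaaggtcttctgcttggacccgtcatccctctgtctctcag
G and C made up 58.5%, 76% and 64% of the 3 stretches. Over all windows of the table the median was 52.7%, and over the 30 member windows 60.7%. The full Acadm window does hold AGGTCA, on the opposite strand, at bases -249 to -244 from the start, outside the stretch shown.

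Matches to the direct repeat of PPAR with RXR (2 copies of AGGTCA with 1 base between them, either strand, up to 2 mismatches in 12) were present in 3 of 28 members (10.7%), against 4.4% of all genes with a window. Its hexamers overlap the single AGGTCA, which 4 of 28 members held (14.3%, against 18.1%). The element of nuclear respiratory factor 1 (NRF1), GCGCA and GCGC with any base between them, was present in 3 of 28 (10.7%, against 5.19%). TNAAGGTCA, the extended element of estrogen-related receptors, and TGACGTCA, the cAMP response element, were in 0 of 28 members, against 1.43% and 2.03% of all genes. The matches are shown with their neighbouring bases, matched bases in capitals, on the strand of the gene, direct repeats before NRF1 elements.
Echs1 (chr7:140116484-140116512, minus strand): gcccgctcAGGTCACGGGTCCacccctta
Etfa (chr9:55512300-55512328, minus strand): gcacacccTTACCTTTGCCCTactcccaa
Slc25a20 (chr9:108662134-108662162, plus strand): ctgaatgtAGGTGAAAGGTCGgcggagcc
Etfdh (chr3:79628876-79628905, minus strand): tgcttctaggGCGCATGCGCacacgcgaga
Acad10 (chr5:121660535-121660564, minus strand): ccgccgggtcGCGCACGCGCacgcggaaag
Acad10 (chr5:121660499-121660528, minus strand): ggccccgggcGCGCATGCGCtttcgacagc
Etfb (chr7:43444051-43444080, plus strand): gtgttgcggcGCGCAGGCGCagagacagat
None of these genes was among the 5 that fell in G3 Tert-/- kidneys, of which only Cpt2, Acadl and Acadm had a window. Decr1 and Acot13 had none and could not show a match. A match is a run of letters and not a measured binding site.

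Hadha and Hadhb lie head to head on chromosome 5, with 85 bases between their annotated starts (chr5:30155163-30155247, shown on the plus strand, GRCm38). This stretch, which both genes share, is shown because they encode the subunits of 1 complex.
Hadha and Hadhb: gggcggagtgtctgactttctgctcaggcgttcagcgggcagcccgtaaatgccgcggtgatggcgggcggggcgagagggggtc
It holds no AGGTCA on either strand. The 2 genes' estimates with age were -0.16 and -0.30 in Tert+/+ and -0.03 and -0.27 in G3 Tert-/- kidneys, and neither passed.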

How the data were processed

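The deposited values are a signal, normalized counts, made by the authors from QuantSeq 3′ libraries (300 ng RNA, quality score 6.6 on average, range 5.0 to 7.5, per the labels). Per the submitters' processing notes the build was GRCm38, the tools were HTSeq 0.6.1 and DESeq2, TopHat2 2.0.10 with Bowtie 1.0.0, and FastQC 0.11.7 beside SAMtools 0.1.19. The values are whole reads divided by 1 factor per library: all came out whole within 1e-06, so read totals were recovered. A value of 3 reads is 2.49 to 3.38 normalized counts.

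Every gene with a normalized count of 10 or more in at least 5 libraries (14630 of 19940) was fitted with limma 3.58.1 in R 4.3.3 on log2(value + 1), with a mean for each of the 4 groups, two-sided tests and Benjamini-Hochberg adjustment over all genes; calls have adjusted p under 0.05. Fold changes are on that scale and understate the change of low genes. edgeR 4.0.16 and DESeq2 1.42.0 on the recovered reads, another pseudocount, no filter, quantile normalization, library weights, a 2-group model and leaving out libraries were alternatives. Fits with an adipocyte marker covariate, or without 5 libraries with a marker sum above 1500, were chosen after seeing the data. The fits were tested on simulated data. Genes named with values in every library were those called, the 3 with the smallest p in each comparison with fewer than 3 calls, and Cpt1a, Acadm, Hadha, Oxct1, Bdh1 and Pdk4. Ppara and Ppargc1a fall outside this rule and were chosen after their values were seen. Values of some genes of the related lists are not reported here. The members and lists were chosen with earlier results of these data known. Replicates differed by more than sampling noise in all 40 pairs (chi-square per degree of freedom 3.59 to 86.6).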

Additional observations from a re-analysis of the deposited data

Results flagged for a closer look

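In groups of 5, a library is named here where its gap to the nearest other library, divided by the range of the group, was above 0.71, a limit that chance passes in about 1 of 20 groups. Of 132 groups of member values, 20 did, in 16 members. Tert+/+ old replicate 4, 1 of the libraries that stand apart, held 8 of the 20. It was the lowest of its group for Slc25a20 (143), Etfa (369), Hadhb (227) and Hadh (875), and the highest for Acadm (4876), Acads (2691), Etfb (4336) and Oxct1 (10604). The low and high members included partners of the same complexes. Etfa and Hadhb were low, while Etfb and Hadha (1577, not past the limit) were the highest of their group. Hadh, which acts on shorter chains, was low, while Acadm and Acads, the medium- and short-chain dehydrogenases, were high. Tert+/+ young replicate 1, the other library that stands apart, was the highest of its group for Acadvl (1090.4) and Echs1 (2027).

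G3 Tert-/- young replicate 3 was the highest of its group for Slc25a20 (518), Cpt2 (650.9), Hadhb (762) and Pdk4 (46.2), and it had the highest adipocyte marker sum. Pdk4 was also high in Tert+/+ young replicate 5 (24.4), the library with the highest adipocyte marker sum of its group. G3 Tert-/- young replicate 4 was the highest for Acad11 (535) and Acot2 (1163). The remaining values were Acadsb in Tert+/+ old replicate 2 (858), Etfb in G3 Tert-/- young replicate 2 (4238) and Decr1 in G3 Tert-/- old replicate 5 (1203), each the highest of its group.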

How the results depend on the processing

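No paired analysis was possible because replicate numbers are only an order of listing and the labels carry no pairing. For 44 chosen pairs of a member and a comparison, out of all the members and comparisons, 961 values were recomputed: 903 kept direction and side of the threshold, 34 changed sign, 22 lost a call and 2 gained one (Acadm and Ucp2 with age in Tert+/+ kidneys). Calls gained by members outside these pairs, such as Slc25a20, Hadh, Acat1 and Acot2 in G3 Tert-/- kidneys, are not in that count. The causes were not tested.

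Members called with age in G3 Tert-/- kidneys (5) were 2 with quantile normalization, 8 with library weights, 1 without the libraries rich in adipocyte markers, and 2 to 5 leaving out 1 library, with 2 without G3 Tert-/- old replicate 4. With age in Tert+/+ kidneys (0), library weights gave 1 and leaving out the adipocyte-rich libraries 1. Leaving out 1 library, the median over members was -0.35 to -0.23 with age in G3 Tert-/- kidneys, 0.044 to 0.14 at 7 weeks and -0.19 to -0.0709 for the interaction, which was -0.22 without the adipocyte-rich libraries.

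Estimates that changed sign were all near 0 or of Pdk4. Between genotypes at 7 weeks, Cpt1a (-0.01) was 0.0596 with library weights, 0.013 with the adipocyte covariate and -0.0778 to 0.044 leaving out 1 library. Hadha (-0.02) was 0.0065 with library weights and -0.0827 to 0.0226 leaving out 1 library. Bdh1 (-0.0052) was 0.0014 with edgeR, 0.0024 with DESeq2, 0.00023 with quantile normalization, 0.00597 without the adipocyte-rich libraries, 0.0837 with the covariate and -0.14 to 0.0826 leaving out 1 library. At 47 weeks, Oxct1 (-0.04) was 0.0018 with quantile normalization, 0.0385 with library weights, 0.0182 without both libraries that stand apart, 0.0302 without the adipocyte-rich ones and -0.067 to 0.0431 leaving out 1. With age in Tert+/+ kidneys, Pdk4 (-0.16) was 0.0641 with library weights, 0.28 without the adipocyte-rich library, 0.13 with the covariate and -0.41 to 0.28 leaving out 1. With age in G3 Tert-/- kidneys, Hadha (-0.03) was 0.0182 with quantile normalization, 0.0064 without the adipocyte-rich libraries, 0.0054 with the covariate and -0.13 to 0.0505 leaving out 1. The Pdk4 interaction (-0.36) was -0.80 to 0.0741 leaving out 1.

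All genes called numbered 0, 14, 95, 327 and 1 at 7 weeks, at 47 weeks, with age in Tert+/+, with age in G3 Tert-/- and in the interaction. They were 13, 51, 211, 533 and 7 with DESeq2, and 1, 95, 367, 1007 and 2 with library weights. A 2-group model gave 6 at 47 weeks and 53 with age in Tert+/+ kidneys. Without both libraries that stand apart, 661 were called with age in G3 Tert-/- kidneys and 0 in the interaction. Without the adipocyte-rich libraries these were 122 and 0, with 8 at 47 weeks. Leaving out 1 library gave 0 to 2, 2 to 19, 56 to 125, 192 to 339 and 0 to 2.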
